A study of Homo sapiens with 6 samples.

Results

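Glycolysis converts glucose to pyruvate in the cytosol. Glucose enters through SLC2A (GLUT) transporters, is trapped as glucose phosphate by the hexokinases, passes the committed step at phosphofructokinase, and leaves many tumour cells as lactate through the SLC16A (MCT) transporters. The PFKFB enzymes make and degrade a small molecule that activates phosphofructokinase, so they are among the controls of that step. Many genes of the pathway are textbook targets of hypoxia-inducible factor (HIF), and high glycolytic flux in the presence of oxygen is a known feature of breast cancer cells.

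The glycolysis, glucose uptake and lactate genes described here were 31 rows of the deposited gene count table, chosen by symbol along the order of the pathway, of 33451 rows in all. They comprised 5 glucose transporters, 2 hexokinases, glucose phosphate isomerase, 3 phosphofructokinases, 4 PFKFB enzymes, 3 genes at the aldolase and triose phosphate step, 7 genes from GAPDH to PKM, 2 lactate dehydrogenases, 2 monocarboxylate transporters and the opposing phosphatases TIGAR and FBP2. The rule itself used no measured value, but the genes were listed with earlier results of these data known.

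The study compared MDA-MB-453 cells, an established human breast cancer line, kept with 25-hydroxyvitamin D, 25(OH)D, the circulating form of vitamin D, at 100 nM for 5 days, with the same cells kept in the solvent, alcohol. Each group had 3 stranded mRNA libraries, labelled as the experimental group (25(OH)D) and the control group. Both groups were the unmodified line, and the result concerns this single line. The methods call the libraries biological replicates without saying how the cultures were separated, so the p-values measure the spread between these libraries.

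The libraries held 33268860 to 40928176 assigned counts. Mitochondrial genes took 7.85 to 7.99% of all counts without 25(OH)D and 8.89 to 9.24% with it. The first principal component held 64.8% of the variance and separated the groups, while the second held 10.5% and set 25(OH)D libraries 1 and 3 apart from each other. All 8 luminal and apocrine markers were tested, with a summed level of 3619 to 3705 CPM (counts scaled to a common library size) without 25(OH)D against 3936 to 3995 CPM with it. The 4 immune markers summed to 0.0720 to 0.364 CPM in every library, and ESR1 and PGR together to 0 to 0.312 CPM. Fibroblast markers summed to 36.5 to 38.8 CPM without and 32.0 to 34.6 CPM with 25(OH)D, nearly all of it COL1A1. Basal markers summed to 0.480 to 0.899 CPM without and 0.522 to 1.17 CPM with 25(OH)D, and did not move together. TP63 fell from 12, 26 and 19 counts to 3, 2 and 2 (edgeR's quasi-likelihood test, adjusted p = 0.00193). KRT14, too low to be tested, had 4, 6 and 1 counts against 24, 8 and 12. KRT5 had 4, 2 and 10 against 14, 18 and 3 and did not pass. In bulk libraries, fewer cells of a kind and less RNA per cell cannot be told apart.

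The promoter windows of a few members are shown because HIF and the MYC family read short sequences that are easy to see by eye. RefSeq promoter windows (build GRCh38.p14, 250 bases before to 50 bases after a transcript start) were matched by symbol to 27 of the 31 members, and no window was used for PFKFB2, SLC2A3, SLC2A4 or SLC16A1. ACGTG, a form of the core of the hypoxia response element, was searched on both strands. The form GCGTG was not searched, so a window without a match can still hold a core. The E-box CACGTG was also searched, which holds ACGTG on both strands and therefore always counts in both searches. Capitals mark each ACGTG and its reverse complement CACGT, written 5' to 3' along the strand of the gene. Where a gene has windows with and without a match, as PFKFB3 and LDHA do, a window with a match is shown. The windows are those of PFKFB3 (chr10:6202682-6202981, plus strand), the member that fell furthest; ALDOA (chr16:30064247-30064546, plus strand) and LDHA (chr11:18394313-18394612, plus strand), which rose and hold matches; and PFKFB1 (chrX:54994139-54994438, minus strand), which rose furthest and has no match in either of its windows.
PFKFB3: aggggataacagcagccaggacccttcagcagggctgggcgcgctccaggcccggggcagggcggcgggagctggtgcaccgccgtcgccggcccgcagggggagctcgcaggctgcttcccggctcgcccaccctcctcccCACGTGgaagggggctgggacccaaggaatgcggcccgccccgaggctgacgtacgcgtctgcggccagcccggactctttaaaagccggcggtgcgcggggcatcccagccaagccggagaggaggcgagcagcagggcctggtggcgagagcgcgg
ALDOA: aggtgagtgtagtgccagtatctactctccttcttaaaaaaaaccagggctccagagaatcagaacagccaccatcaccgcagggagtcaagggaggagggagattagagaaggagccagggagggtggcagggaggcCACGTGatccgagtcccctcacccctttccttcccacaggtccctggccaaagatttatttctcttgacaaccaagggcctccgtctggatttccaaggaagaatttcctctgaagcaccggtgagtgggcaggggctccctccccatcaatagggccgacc
LDHA: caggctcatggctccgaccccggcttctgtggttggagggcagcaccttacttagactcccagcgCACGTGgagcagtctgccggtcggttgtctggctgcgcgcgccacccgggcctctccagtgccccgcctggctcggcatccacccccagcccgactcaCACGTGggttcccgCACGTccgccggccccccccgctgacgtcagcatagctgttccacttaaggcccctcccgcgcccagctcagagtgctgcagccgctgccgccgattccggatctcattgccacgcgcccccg
PFKFB1: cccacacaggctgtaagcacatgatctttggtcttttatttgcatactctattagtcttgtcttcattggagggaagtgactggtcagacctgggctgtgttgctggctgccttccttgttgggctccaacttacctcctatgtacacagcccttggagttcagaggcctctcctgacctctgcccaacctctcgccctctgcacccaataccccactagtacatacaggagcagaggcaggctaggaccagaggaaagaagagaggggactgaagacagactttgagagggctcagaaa

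ACGTG stood in a window of 15 of the 27 members (55.56%), against 24.87% of 27305 genes with a window. Counted by window, since members and other genes differ in windows per gene, 19 of the members' 54 windows held it (35.19%) against 21.41% of 35116 windows. CACGTG stood in windows of 6 members (22.22%), against 8.775% of all genes. By result, ACGTG was found for 6 of the 9 members with a window that rose, 2 of the 3 that fell and 7 of the 15 that did not pass the test. A match is a description of these letters only, and the gene counts do not tell which start site was used.

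Under 25(OH)D, 10 members rose and 4 fell of the 29 that passed the low-count filter, at an adjusted p under 0.05 (edgeR's quasi-likelihood test, Benjamini-Hochberg over 18183 genes). Of all genes tested, 17.3% rose and 16.5% fell, against 34.5% and 13.8% of the 29 members. The median log2 fold change was 0.09 over the 29 members and -0.01 over all genes tested. SLC2A3 and SLC2A4 had too few counts to be tested. Fold changes below are 25(OH)D over control, levels are CPM scaled with TMM factors, and errors are the SD of 3 libraries.

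The 3 libraries of one group lay entirely above those of the other for 17 of the 29 tested members, 11 of them higher and 6 lower with 25(OH)D. Over all genes, 22.8% were separated upwards and 22.9% downwards, against 37.9% and 20.7% of the members. With the limits the study used, a log2 fold change over 1 in size and an unadjusted p under 0.05, 1 member passed upwards (PFKFB1) and 1 downwards (PFKFB3), where 4.02% and 2.63% of all genes did so. The summed level of the 31 members was 4690 ± 120 CPM without and 5081 ± 208 CPM with 25(OH)D (SD, n = 3 each), with ranges of 4574 to 4813 and 4861 to 5275 that did not overlap. With library sizes alone, a scaling added after the data were seen, the ranges were 4616 to 4897 and 4761 to 5232 CPM and overlapped.

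**Figure D1:**
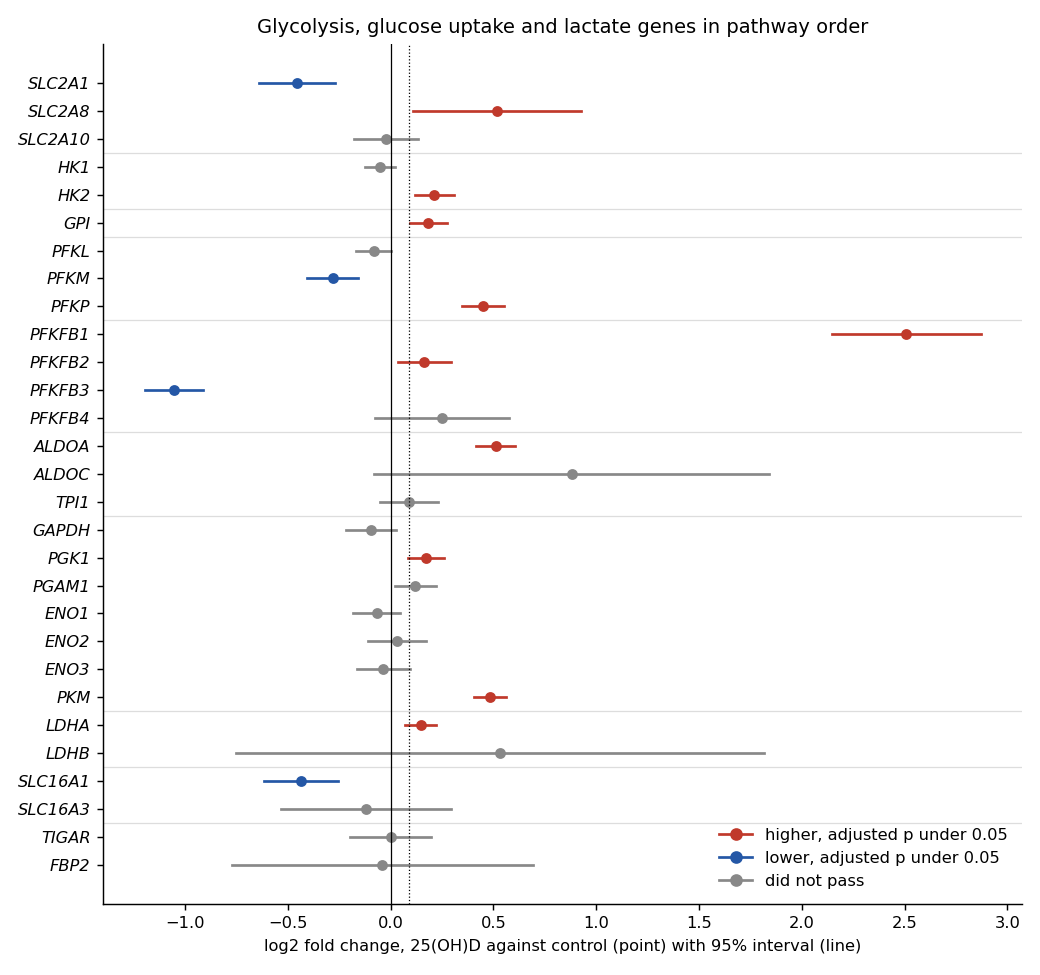
Log2 fold change (25(OH)D against control, x axis) of the 29 tested members in pathway order, with 95% intervals as bars, colour for the outcome of edgeR's test and a dotted line at the members' median of 0.09. PFKFB1 at 2.51 and PFKFB3 at -1.05 lie furthest from 0, and the other members that passed lie between -0.45 and 0.52.

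Among the transporter genes, the RNA of SLC2A1 fell and that of SLC2A8 rose, the latter at the threshold. SLC2A1 (GLUT1; chromosome 1, 42925375 to 42959173, minus strand), the main basal glucose transporter of many tumour cells, measured 22.5, 19.2 and 19.9 CPM in the control libraries and 14.0, 14.8 and 16.2 CPM with 25(OH)D. Every 25(OH)D library was below every control library, a 1.37-fold decrease (log2 fold change -0.45, SE 0.0862, adjusted p = 8.63e-04). SLC2A8 (GLUT8, chromosome 9, 127397138 to 127408424) is an intracellular hexose transporter. It measured 1.92, 2.59 and 2.88 CPM without and 3.21, 3.98 and 3.35 CPM with 25(OH)D. The increase was 0.52 on the log2 scale (SE 0.189, adjusted p = 0.0484). That call lay at the threshold and was lost in 10 of 16 alternative analyses (adjusted p 0.0298 to 0.172), among them those without control replicate 1 or 2 and without each 25(OH)D library.

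SLC2A10 (GLUT10; chromosome 20) was the most abundant of the 5 transporters per length, at 8.53 ± 0.484 RPKM (counts divided by exon length and library total; SD, n = 3) without 25(OH)D against 8.15 ± 0.809 RPKM with it. Its libraries overlapped and the log2 fold change was -0.02 (95% interval -0.18 to 0.13, adjusted p = 0.852). SLC2A3 (GLUT3, a high-affinity transporter) had 2, 0 and 0 counts without 25(OH)D against 4, 6 and 0 with it, and SLC2A4 (GLUT4, the insulin-responsive transporter) 0, 2 and 0 against 2, 4 and 0. A count of 0 allowed up to 0.0733 to 0.0902 CPM at these depths, for counting error only. These bounds are 3 counts over the library total, without TMM factors. They take single counts as independent, which is uncertain here because small counts were more often even than large ones. SLC2A1 took 33.9, 29.0 and 31.7% of the 5 member transporters' summed RPKM in the control libraries and 22.4, 23.9 and 28.5% with 25(OH)D. SLC2A11, a transporter outside the members, stood higher than each of them, at 20.2 ± 2.05 RPKM without and 27.9 ± 2.91 RPKM with 25(OH)D.

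At the hexokinase step, HK2, the isoform that is often raised in tumours, rose modestly and HK1, the widespread isoform, did not pass. HK2 (chromosome 2, 74833981 to 74893359) measured 187, 194 and 180 CPM in the control libraries and 210, 227 and 214 CPM with 25(OH)D. The groups did not overlap, and HK2 was 1.16-fold higher (log2 fold change 0.21, SE 0.0433, adjusted p = 0.00149). HK1 (chromosome 10) measured 291, 294 and 293 CPM against 284, 285 and 278 CPM, a log2 fold change of -0.05 (95% interval -0.13 to 0.02, adjusted p = 0.287). HK1 passed as lower with library sizes alone and on RPKM (adjusted p 0.0434 to 0.0473, over all alternatives up to 0.621). HK1 took 61.0 ± 0.862% of the summed hexokinase RPKM in the control libraries and 56.5 ± 0.870% with 25(OH)D.

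GPI, glucose phosphate isomerase (chromosome 19, 34359480 to 34402156), which turns glucose phosphate into fructose phosphate, measured 111, 113 and 116 CPM in the control libraries and 132, 128 and 126 CPM with 25(OH)D. It was 1.14-fold higher in non-overlapping groups (log2 fold change 0.18, SE 0.0415, adjusted p = 0.00322). RP11-618P17.4 on the same strand shared 542 exon bases with it and changed by 0.12 on the log2 scale (adjusted p = 0.185).

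Of the 3 phosphofructokinase isoforms, which carry out the committed step, PFKP rose, PFKM fell and PFKL did not pass. PFKP, the platelet isoform (chromosome 10, 3066333 to 3137712), measured 81.4, 86.5 and 86.9 CPM in the control libraries and 115, 120 and 113 CPM with 25(OH)D, 1.37-fold higher (log2 fold change 0.45, SE 0.0466, adjusted p = 3.32e-06). PFKM, the muscle isoform (chromosome 12, 48105139 to 48146404), measured 37.4, 39.9 and 38.2 CPM without and 32.3, 31.2 and 31.5 CPM with 25(OH)D, a 1.22-fold decrease (log2 fold change -0.28, SE 0.0581, adjusted p = 0.00164). Neither isoform's groups overlapped.

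PFKL, the liver isoform (chromosome 21), had non-overlapping libraries of 152, 145 and 149 CPM against 141, 142 and 138 CPM but did not pass the test (log2 fold change -0.08, SE 0.0399, adjusted p = 0.132). It passed as lower with upper-quartile factors, with library sizes alone and on RPKM (adjusted p 0.0251 to 0.0432, over all alternatives up to 0.375). Per length, PFKP stood at 17.8 ± 0.601 RPKM and PFKL at 16.9 ± 0.382 RPKM without 25(OH)D (SD, n = 3), and at 23.6 ± 0.936 and 15.4 ± 0.325 RPKM with it. PFKP's share of the 3 isoforms' RPKM was 44.5 ± 1.10% in the control libraries and 54.5 ± 0.632% with 25(OH)D, while the share of PFKL was 42.1 and 35.7% and that of PFKM 13.4 and 9.88%. A gene on the same strand shared 120 exon bases with PFKP and rose by 0.45 on the log2 scale (adjusted p = 0.0130). PFKM shared 628 exon bases with SENP1 on the opposite strand, which changed by -0.28 on the log2 scale. Whether the counting used the strand is not given in the sources used here.

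The members with the largest changes that passed were PFKFB3 and PFKFB1, both of the PFKFB enzymes that make and break the activator of phosphofructokinase. PFKFB3, the isoform known for its high kinase activity and its HIF-responsive promoter (chromosome 10, 6144934 to 6235545), measured 86.9, 83.9 and 82.2 CPM in the control libraries and 42.3, 43.4 and 36.2 CPM with 25(OH)D. PFKFB1, the liver and muscle isoform (chromosome X, 54932961 to 54998534), measured 1.27, 1.67 and 1.77 CPM without and 7.94, 8.30 and 10.5 CPM with 25(OH)D, from 53 to 65 counts per control library and 279 to 342 counts per 25(OH)D library. Every PFKFB3 library was lower and every PFKFB1 library higher with 25(OH)D, with wide gaps between the groups.

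PFKFB3 fell 2.08-fold (log2 fold change -1.05, SE 0.0656, adjusted p = 1.62e-08) and PFKFB1 rose 5.69-fold, with a 95% interval of 4.42 to 7.31 (log2 fold change 2.51, SE 0.168, adjusted p = 3.63e-08). PFKFB2, the heart isoform (chromosome 1, 207034366 to 207081024), measured 30.6, 32.8 and 33.3 CPM against 36.5, 35.4 and 36.4 CPM, 1.12-fold higher (adjusted p = 0.0497), and lost its call in 11 of 16 alternatives (adjusted p 0.0369 to 0.240), among them those without any 1 library other than control replicate 3. PFKFB4 (chromosome 3), an isoform known as hypoxia-inducible, measured 5.57, 4.94 and 3.83 CPM against 5.06, 6.09 and 5.95 CPM in overlapping groups (log2 fold change 0.25, adjusted p = 0.235).

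By level per length, PFKFB3 was the leading PFKFB gene in every library. Its share of the 4 genes' RPKM was 77.8, 76.0 and 75.9% in the control libraries and 48.3, 48.3 and 40.6% with 25(OH)D, a fall of 30.9 percentage points. PFKFB1 took 3.03, 4.02 and 4.34% of that sum without and 24.1, 24.6 and 31.4% with 25(OH)D. Counted without dividing by exon length, the difference in the PFKFB3 share was -24.2 points. The summed level of the 4 genes was 121 to 124 CPM without and 89.0 to 93.2 CPM with 25(OH)D.

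**Figure D2:**
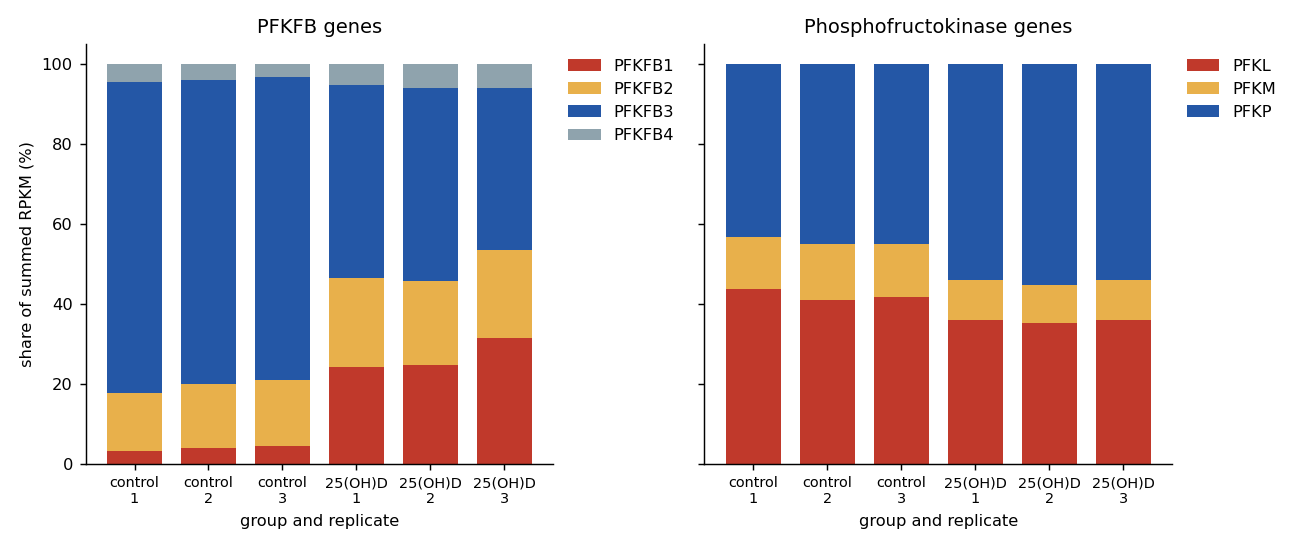
Stacked bars of the share of summed RPKM (percent, y axis) taken by each PFKFB gene and by each phosphofructokinase gene in the 6 libraries (x axis). PFKFB3 holds 75.9 to 77.8% of the PFKFB sum in the control libraries and 40.6 to 48.3% with 25(OH)D, and PFKP 43.2 to 45.2% of its sum without and 54.1 to 55.2% with 25(OH)D.

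Paralog shares, of which 10 were tested, do not depend on the scaling between libraries. For 6 of them (SLC2A1, HK1, PFKL, PFKM, PFKP and PFKFB3) every library of one group lay beyond every library of the other, with a two-sided exact permutation p of 0.1, the smallest that 3 against 3 allows, and 0.167 after Benjamini-Hochberg adjustment over the 10. The shares of one step are tied, since they sum to the whole. For the other 4 shares the groups overlapped: ALDOA of the 2 aldolases (99.9 and 99.8%, exact p = 0.2), ENO1 of the 3 enolases (93.1 and 92.8%, exact p = 0.2), SLC16A1 of the 2 monocarboxylate transporters (89.0 and 86.7%, exact p = 0.3) and LDHA of the 2 lactate dehydrogenases (99.9% in both groups, exact p = 0.7).

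ALDOA, the main aldolase (chromosome 16, 30053090 to 30070457), measured 482, 472 and 466 CPM without and 683, 715 and 629 CPM with 25(OH)D. It was 1.43-fold higher in groups that did not overlap (log2 fold change 0.51, SE 0.0440, adjusted p = 5.08e-07). An antisense gene, CTD-2515O10.5, shared 520 exon bases with it and rose by 0.59 on the log2 scale. ALDOC, the brain isoform, was near the filter at 0.280 ± 0.0910 and 0.525 ± 0.140 CPM (SD, n = 3, adjusted p = 0.152).

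TPI1, triose phosphate isomerase, measured 197, 210 and 215 CPM in the control libraries and 235, 234 and 192 CPM with 25(OH)D. For TPI1 the third 25(OH)D library was lower than every control. Its log2 fold change was 0.09 (adjusted p = 0.338), and without 25(OH)D replicate 3 it passed as higher (0.19, adjusted p = 0.00573; over all alternatives 0.00573 to 0.768).

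From GAPDH to PKM, 2 of 7 genes rose. PKM, pyruvate kinase, the last step to pyruvate (chromosome 15, 72199029 to 72231822), measured 475, 451 and 482 CPM in the control libraries and 652, 663 and 651 CPM with 25(OH)D, a 1.40-fold increase (log2 fold change 0.48, SE 0.0360, adjusted p = 1.17e-07). Gene counts do not separate its splice forms. PGK1, phosphoglycerate kinase, an ATP-forming step (chromosome X, 78065188 to 78129296), measured 122, 123 and 127 CPM against 138, 142 and 141 CPM. It was 1.13-fold higher with 25(OH)D (log2 fold change 0.17, SE 0.0404, adjusted p = 0.00397).

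The most abundant members per length did not pass. GAPDH measured 816, 754 and 693 CPM in the control libraries and 717, 745 and 657 CPM with 25(OH)D, and ENO1, the widespread enolase, 1010, 962 and 898 CPM against 931, 974 and 836 CPM. Both overlapped, with log2 fold changes of -0.09 (95% interval -0.22 to 0.03) and -0.07 (-0.18 to 0.05). Per length, the control libraries held 257 ± 21.9 and 245 ± 15.5 RPKM of them (SD, n = 3). GAPDH shared 422 exon bases with the antisense gene RP5-940J5.9, which held 33394 counts over the 6 libraries. GAPDH passed as lower only without control replicate 3 (-0.14, adjusted p = 0.0498, other alternatives up to 0.753).

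PGAM1, phosphoglycerate mutase, measured 76.6, 74.0 and 76.1 CPM against 79.9, 84.7 and 81.7 CPM with 25(OH)D, groups that did not overlap, at a log2 fold change of 0.12 (adjusted p = 0.0621). It passed as higher when mitochondrial genes were left out (adjusted p = 0.0395) and among genes of at least 50 counts on average (0.0404), within a range of 0.0395 to 0.243. ENO2 and ENO3, the neuronal and muscle enolases, overlapped between groups, with log2 fold changes of 0.03 (95% interval -0.11 to 0.17) and -0.04 (-0.16 to 0.09).

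**Figure D3:**
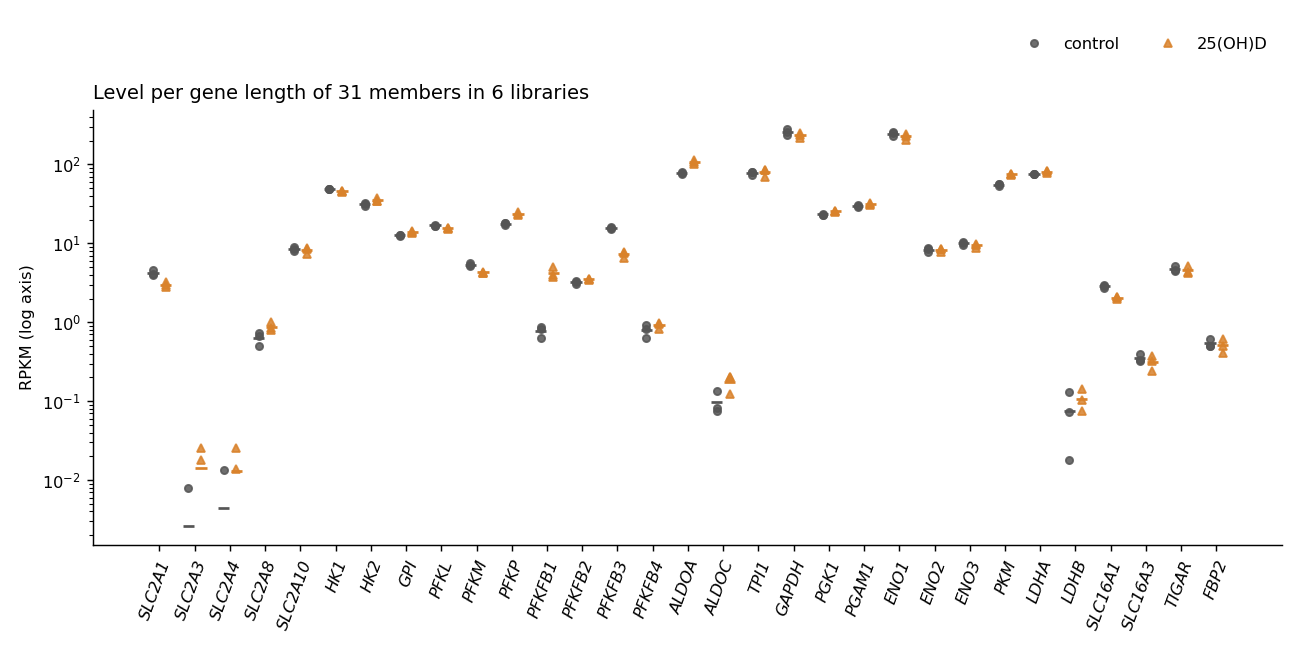
Deposited RPKM (log axis) of each member in the 6 libraries, in pathway order, with a dash at each group mean. Listed zeros enter the mean but are not drawn as points. GAPDH and ENO1 lie highest near 250 RPKM, and SLC2A3, SLC2A4, LDHB and ALDOC lie lowest.

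LDHA, which turns pyruvate into lactate (chromosome 11, 18394388 to 18408425), measured 466, 457 and 459 CPM in the control libraries and 493, 515 and 522 CPM with 25(OH)D. The groups did not overlap and the increase was 1.11-fold (log2 fold change 0.15, SE 0.0354, adjusted p = 0.00511), a call that was lost when RPKM values were tested (adjusted p 0.0565 and 0.0587). LDHB, the isoform that favours the reverse reaction, had 16, 2 and 8 counts without 25(OH)D against 8, 12 and 14 with it, so LDHA made up nearly all lactate dehydrogenase RNA in both groups.

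Of the lactate exporters, SLC16A1 (MCT1; chromosome 1, 112911847 to 112957013), which moves lactate in both directions, measured 15.5, 14.1 and 15.1 CPM without and 11.3, 11.1 and 10.6 CPM with 25(OH)D. It fell 1.35-fold in groups that did not overlap (log2 fold change -0.44, SE 0.0837, adjusted p = 9.37e-04). SLC16A3 (MCT4, chromosome 17), the exporter of strongly glycolytic cells, measured 2.83, 3.46 and 2.99 CPM against 2.19, 2.89 and 3.47 CPM. The groups overlapped, with a log2 fold change of -0.12 (95% interval -0.53 to 0.29). SLC16A3 shared 482 exon bases with CSNK1D on the opposite strand, which held 15995 counts over all libraries against 660 for SLC16A3.

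TIGAR, a phosphatase that lowers the activator of phosphofructokinase, stood at 18.8 ± 1.62 CPM (SD, n = 3) without and 18.8 ± 2.00 CPM with 25(OH)D. Its log2 fold change was 0.00 (95% interval -0.20 to 0.20). FBP2, the muscle fructose bisphosphatase of gluconeogenesis, was at 0.693 ± 0.0867 and 0.674 ± 0.133 CPM. Neither passed, and the libraries of both genes overlapped between the groups.

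Genes linked to glycolysis were counted from 11 lists with 94 genes, of which 74 were tested, 15 rose and 13 fell. Some lists are pathways that join or branch from glycolysis. The others are further transporters and paralogs, lactate transport partners, glucose sensing genes and HIF targets outside glycolysis. Those shares, 20.3% and 17.6%, lay near the 17.3% and 16.5% of all genes tested, so the pooled counts are not results about the lists. Counts of single lists are descriptions, and 7 of the 13 genes that fell were HIF targets outside glycolysis. In the pentose phosphate pathway 2 of the 7 genes tested rose, with a list median of -0.05. PGD, phosphogluconate dehydrogenase, an NADPH-forming enzyme of that pathway, measured 412, 403 and 404 CPM in the control libraries and 479, 468 and 449 CPM with 25(OH)D. It was 1.15-fold higher in groups that did not overlap (log2 fold change 0.20, SE 0.0364, adjusted p = 7.46e-04).

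In glycogen metabolism 4 of 9 genes rose and 1 fell, with a list median of 0.26. PGM1, phosphoglucomutase, which links glucose phosphate to glycogen, measured 18.9, 19.5 and 19.8 CPM without and 30.0, 25.9 and 27.2 CPM with 25(OH)D, 1.43-fold higher (log2 fold change 0.52, SE 0.0726, adjusted p = 6.81e-05). PYGB, brain glycogen phosphorylase, measured 48.5, 45.8 and 49.7 CPM against 36.2, 36.0 and 32.7 CPM and fell by 0.46 on the log2 scale (adjusted p = 4.66e-05).

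Among 12 genes of mitochondrial pyruvate entry 3 rose, led by MPC2, a subunit of the mitochondrial pyruvate carrier (0.50, adjusted p = 3.26e-06). Among 4 genes of gluconeogenesis 1 fell, PCK2, the mitochondrial phosphoenolpyruvate carboxykinase (-0.81, adjusted p = 1.69e-07). In the hexosamine pathway 1 of 4 rose, GFPT1, its first enzyme (0.20), and 1 fell, UAP1 (-0.17). GPD1L fell by 0.21 on the log2 scale among 3 genes of the glycerol phosphate shuttle.

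Of 6 other hexose transporters 2 rose, led by SLC2A11 (159, 176 and 196 CPM against 237, 237 and 284 CPM, log2 fold change 0.51). The other transporter that rose, SLC2A6, named after its values were seen, had 18, 2 and 0 counts against 30, 38 and 30 (log2 fold change 2.43, adjusted p = 0.0124). Nearly all of its control counts lay in control replicate 1, without which the fitted value was 4.94, and the call was lost with DESeq2 (adjusted p = 0.139) and without control replicate 2 (0.0603), within a range of 4.83e-06 to 0.139 over its alternatives. Of the 9 other paralogs of the glycolytic enzymes, 0 passed edgeR's test, 0 had an unadjusted p under 0.05 and 0 passed DESeq2. Of 3 lactate transport partners 1 rose, BSG (basigin), the chaperone of MCT1 and MCT4 (180, 175 and 174 CPM against 228, 231 and 205 CPM, log2 fold change 0.33, adjusted p = 7.05e-05). Among 6 genes of glucose sensing and uptake control 2 fell, led by TXNIP, which holds back glucose uptake (57.4, 57.8 and 59.7 CPM against 39.1, 41.4 and 37.9 CPM, log2 fold change -0.56, adjusted p = 1.88e-06).

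HIF targets outside glycolysis were set beside the members, since many members are HIF targets themselves. Of 11 tested, 7 fell (63.6%) and 2 rose (18.2%), against 16.5% and 17.3% of all genes tested. Their median log2 fold change was -0.29, against 0.09 for the 29 members. EGLN3, an oxygen-sensing hydroxylase that marks HIF for destruction and is itself a HIF target, measured 105, 105 and 103 CPM in the control libraries and 46.8, 45.2 and 42.6 CPM with 25(OH)D (log2 fold change -1.21, SE 0.0502, adjusted p = 1.78e-10). EGLN1, its relative, rose by 0.59 on the log2 scale (adjusted p = 2.29e-06). The lists were chosen with earlier results of these data known, so their counts are descriptions.

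**Figure D4:**
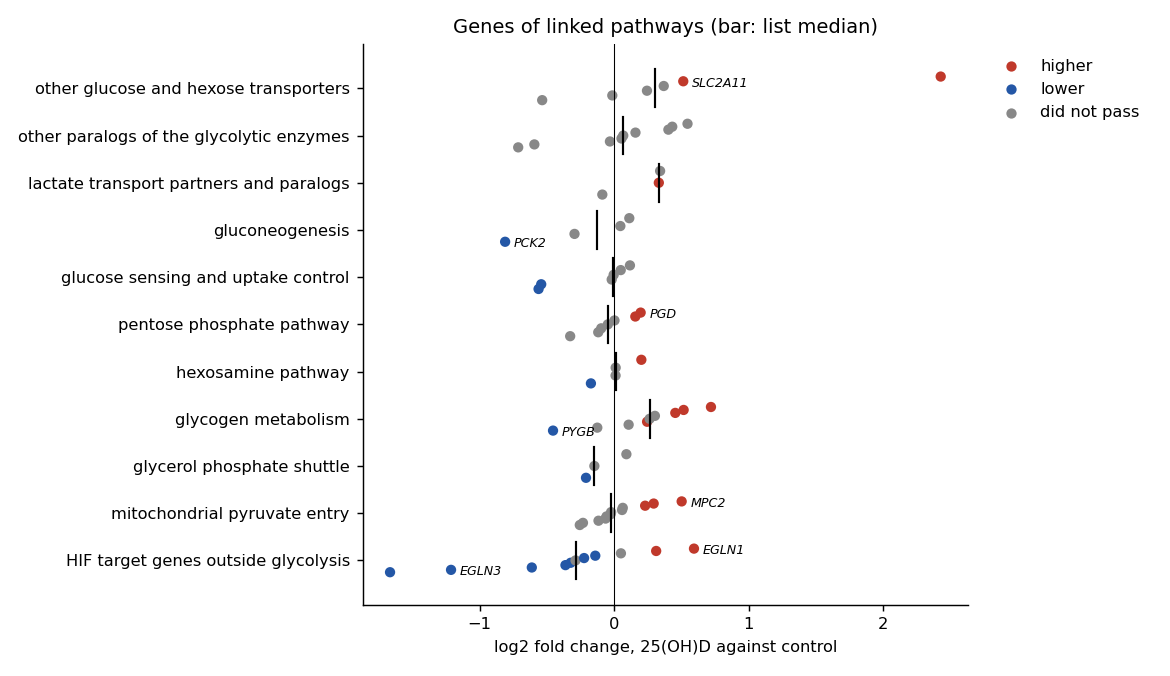
Log2 fold change (25(OH)D against control, x axis) of the tested genes in 11 linked lists (y axis), each point a gene coloured by the outcome of edgeR's test and each bar a list median. SLC2A6 (unnamed in the plot) at 2.43 lies far to the right of its list's median of 0.31, and the list of HIF targets outside glycolysis has its median at -0.29.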

How the data were processed

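The mRNA of 6 MDA-MB-453 libraries was sequenced by the authors with a stranded kit. The deposited table gives whole-number counts per gene and RPKM values. Per the submitters' processing notes, the tools included Trimmomatic 0.36, featureCounts of Subread 1.5.1 and edgeR 3.12.1, with build GRCh38. The aligner, the annotation release, the strand setting and whether reads or fragments were counted are not given in the sources used here. The deposited RPKM values equal the count divided by the summed exon length and the library total, so a long union of exons lowers a gene's RPKM. Of counts from 1 to 10, 68.5% were even, against 52.8% of counts from 101 to 1000.

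Counts were tested with edgeR 4.0.16 (R 4.3.3) by the quasi-likelihood test, with TMM factors, filterByExpr at a minimum count of 10, no covariates and Benjamini-Hochberg adjustment over 18183 genes. Standard errors are the log2 fold change divided by the square root of the F statistic. Paralog shares were tested on RPKM with an exact permutation test (scipy 1.17.1). The biological coefficient of variation was 0.0788. The code was checked on simulated counts. Every member is named, and of each linked list the gene with the smallest p in each direction among those that passed. Some genes of the linked lists are not reported here. The members and lists were chosen with earlier results of these data known. Alternatives were other scaling, mitochondrial genes left out, other count filters, DESeq2 1.42.0, limma 3.58.1 on log2(RPKM + 1) and log2(RPKM + 0.1), the replicate number as a block, and each library left out. Counting intervals and floors cover counting error only.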

Additional observations from a re-analysis of the deposited data

How the results depend on the processing

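Of the 14 members that passed, 11 kept their call and direction in all 16 alternatives, and SLC2A8, PFKFB2 and LDHA lost it in 10, 11 and 2 of them. Members called higher ranged from 7 to 11 and called lower from 4 to 6. The 7 members whose sign changed in an alternative did not pass in any fit. ENO2 turned to -0.00858 with upper-quartile factors, -0.0115 with library sizes alone, -0.00980 on log2(RPKM + 1) and -0.0108 on log2(RPKM + 0.1), and TIGAR to -0.0406, -0.0426, -0.0379 and -0.0454. Leaving out each library gave log2 fold changes of -0.0745 to 0.0646 for SLC2A10, -0.11 to 0.0039 for ENO1, -0.00535 to 0.0822 for ENO2, -0.0532 to 0.0171 for ENO3, -0.27 to 0.0403 for SLC16A3, -0.0844 to 0.0788 for TIGAR and -0.19 to 0.10 for FBP2. The LDHA share difference ranged over -0.0698 to 0.00392 percentage points when a library was left out, and the PFKFB3 share difference was -24.2 points on counts not divided by exon length. The causes were not tested. The median log2 fold change of all genes lay between -0.0554 and -0.000544 in every fit.

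Replicate numbers did not pair the libraries: same-numbered libraries had correlations of -0.072, -0.012 and -0.046, and 0 of 6 correlated best with their own number. With the replicate number as a block, 3057 genes rose and 2896 fell, against 3138 and 3004 without it, and 9 members rose and 4 fell, PFKFB2 being the call lost (adjusted p = 0.0662) and TIGAR turning to -0.00216. Low counts limit SLC2A3, SLC2A4, LDHB, ALDOC and FBP2.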

Other observations

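SLC2A3P1, a gene copy named as a pseudogene of SLC2A3, held 674 to 1078 counts per library, where SLC2A3 itself held 0 to 6. It was looked at after its values were seen. Its level was 22.9 ± 3.10 CPM without and 21.1 ± 0.747 CPM with 25(OH)D (SD, n = 3 each), with overlapping libraries and a log2 fold change of -0.12 (edgeR's quasi-likelihood test, adjusted p = 0.342). Reads of near-identical copies can be assigned to either, so SLC2A3 is uncertain.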
